A study of Ambystoma mexicanum with 12 samples.

Results

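The genes described here encode the proteins of the cytosolic ribosome in regenerating axolotl (Ambystoma mexicanum) limb tissue. They were chosen by name: 62 rows of the count table carried the symbol of a large-subunit protein (RPL), a small-subunit protein (RPS), a stalk protein (RPLP0) or RPSA in the reference annotation, and the row MSTRG.18535, which has no annotated symbol and which the study named RPS25, was added. This gave 63 of 36917 rows, 37 for the large and 26 for the small subunit, carrying 47 of the 77 human ribosomal protein symbols that the name pattern could match. The other 30 symbols had no row under those names and were not analysed here.

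The study asked which genes respond when limb positional identity is reset toward the proximal end by activating 1 retinoic acid receptor. Albino axolotls had both forelimbs amputated through the zeugopod, and 24 hours later they were placed in water with 25 nM Am580, an agonist selective for the alpha receptor, or with the same volume of its solvent DMSO, for 5 days. Blastemas, the cell masses from which a limb regrows, were taken 24 hours after treatment, and poly-A RNA of the mesenchyme left after removal of the epidermis was sequenced, 1 blastema to a library. There were 6 DMSO and 6 Am580 libraries, and the 6 Am580 limbs were those of animals whose opposite limb later showed the strongest duplication, so the choice of animals and the treatment cannot be told apart.

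Each ribosome joins a small subunit, which reads the mRNA, to a large subunit, which forms the peptide bond, and a cell normally supplies their proteins in equal numbers. In vertebrates the mRNAs of these proteins start with a 5′ oligopyrimidine tract, through which mTOR signalling and the RNA-binding protein LARP1 set their translation, while MYC proteins raise their transcription. A growing blastema has a high demand for ribosomes, and several ribosomal proteins also act outside the ribosome, as RPL5 and RPL11 do when they bind MDM2 and so raise p53.

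Depth ranged from 27226012 to 40794002 counts in the DMSO libraries and from 34279044 to 43793138 in the Am580 libraries. A row was tested where at least 10 counts were seen in at least 6 libraries, which left 25879 rows, all 63 ribosomal protein rows among them. Levels are given as CPM, the counts of a library scaled to a common total, with the total adjusted by the trimmed mean of M-values (TMM). Fold changes are log2 values of Am580 over DMSO from edgeR's quasi-likelihood test, and a row was called at a Benjamini-Hochberg adjusted p under 0.05 over all rows tested. DMSO replicate 1 and Am580 replicate 1 had TMM factors of 0.903 and 0.902, against 0.977 to 1.08 in the other 10 libraries. All 11 connective tissue marker rows were detected, but so were rows of other cell types. The assembly was built with these libraries, and the listed markers COL1A1, COL1A2, TWIST2 and DPT had no row under those names. Detection therefore does not test the tissue label. All 9 tested osteoclast marker rows were called lower in Am580 (7.21% of all rows). The sum of the 10 rows of that list fell from between 2598 and 4029 CPM to between 408 and 883 CPM. Of 8 macrophage marker rows, 4 were called higher (6.93% of all rows) and 3 lower. Of 10 tested epidermis marker rows, 3 were called lower and 0 higher, and 2 had a log2 fold change above 0. The 13 epidermis marker rows summed to between 545 and 731 CPM in DMSO and between 389.6 and 512 CPM in Am580. KRT18 alone averaged 595 CPM in DMSO and 435 CPM in Am580, so these sums mainly followed that row. As a median over the 10 tested rows of log2 CPM minus the row's mean, DMSO replicate 1 stood at 2.03. The other libraries stood between -0.866 and 0.279. In bulk tissue, fewer cells of a type and less RNA per cell cannot be told apart.

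Ribosomal protein mRNAs were among the most abundant in the mesenchyme. Their median level per length was 397 RPKM (CPM per kilobase of exon), against 2.51 RPKM over all rows tested, and 16 of the 100 rows with the highest RPKM were ribosomal. Of the 63 rows, 46 were above 100 RPKM, 7 between 10 and 100 and 10 below 10. The highest level per length was that of RPS2 (MSTRG.16313, 2397 RPKM), a small-subunit protein near the mRNA entry channel. RPS15 (MSTRG.16220, 1526 RPKM), which sits in the head of the small subunit, came next. It was followed by RPL31 (MSTRG.18065, 1306 RPKM), which lies near the mouth of the peptide exit tunnel. RPS23 (MSTRG.12777, 1266 RPKM), at the decoding centre, and RPSA (MSTRG.17564, 1244 RPKM), which is also known as a laminin receptor, completed the 5 highest. Within the order, RPL31, RPS23 and RPSA differed by less than the spread between libraries.

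The 10 rows under 10 RPKM were either a minor row of a symbol with several rows or the only row of their symbol. RPL13A (MSTRG.26828) had the lowest row, at 1.27 RPKM, and a far higher row elsewhere, at 727 RPKM (MSTRG.11030). RPS21 (MSTRG.13552) stood at 1.89 RPKM and the annotated RPS25 row (MSTRG.19595) at 2.55 RPKM. RPS19 (MSTRG.4890), the protein most often mutated in human Diamond-Blackfan anaemia, stood at 5.23 RPKM. For 4 of the 47 symbols, RPS21, RPS19, RPL27 and RPL36, even the highest row was under 10 RPKM, from 1.89 to 6.81. RPS25 is outside these only through MSTRG.18535, whose mean over 12 libraries came from 2 of them and whose DMSO mean was 1.89 RPKM. The highest rows of the other 43 symbols spread from 35.7 to 2397 RPKM, with a median of 533 RPKM for 25 large-subunit symbols and 549 RPKM for 18 small-subunit symbols. Reads placed at several sites are not counted under the stated options, so a low row does not measure how much of that mRNA the tissue held.

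**Figure D1:**
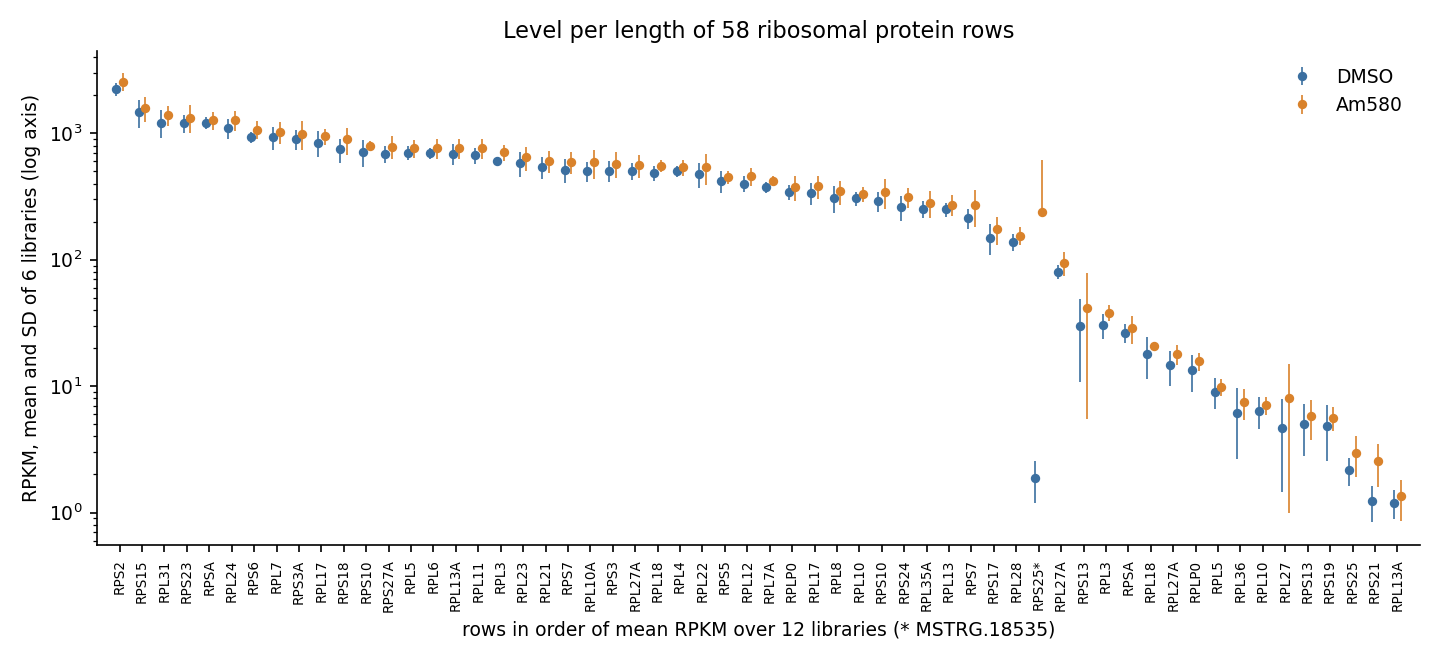
Level per length (RPKM, log axis) of 58 ribosomal protein rows in order of their mean, with 1 point per treatment for the mean of 6 libraries and bars of 1 SD. The lower bar is left out for MSTRG.18535 (starred) in Am580, where the SD of 381 RPKM exceeds the mean of 237. RPS2 leads at 2397 RPKM, and the DMSO and Am580 points lie close together in most rows, the widest gap being that of MSTRG.18535, with RPS21 (1.23 and 2.55 RPKM) and RPL27 (4.68 and 8.04 RPKM) also apart.

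The gene models of these rows shared a property that the names did not choose. A first base at the start, or a last base at the end, of a window of 2048 bases that recurs every 180224 bases along a scaffold was found in 30 of the 63 ribosomal rows (47.6%), against 1895 of all 36917 rows (5.13%). The exon at that edge was 1 to 37 bases long in those 30 rows. Thus RPS18 (MSTRG.16684), RPL3 (MSTRG.433), RPL5 (MSTRG.16073) and RPSA (MSTRG.17564), on different scaffolds of AmexG_v3.0.0, all start at base 1620993. The median span was 147925 bases for the 30 rows and 40064 bases for the other 33, so the annotated spans were not compared further. The summed exon lengths behind the RPKM values, 286 to 9290 bases with a median of 1247, contain those short edge exons. Only 1 of the 63 rows had no reference transcript and 2 had a single exon, while all rows include unnamed and single-exon rows. The shares of 47.6% and 5.13% thus come from unlike sets, and no matched set was compared. What produced the recurring edges was not tested.

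All 63 rows had a log2 fold change above 0, while only 2 were called. The median was 0.183 (interquartile range 0.148 to 0.234), against 0.00432 over all rows tested, of which 13081 of 25879 were above 0. The small-subunit rows had a median of 0.203 and the large-subunit rows 0.164. Both called rows, RPS21 (MSTRG.13552) and MSTRG.18535, were higher in Am580. Both carry small-subunit names, which were not checked by sequence here. These calls are 2 of 63 rows (against 6.93% of all rows called higher). The study listed MSTRG.18535 among its top changes in these same libraries, so its call adds nothing to that share. Without it, 1 of 62 rows was called higher (1.61%). None of the 63 was called lower by edgeR (7.21% of all rows), and 0 reached an unadjusted p under 0.05 in that direction; DESeq2 and limma-voom also called none lower. An unadjusted p under 0.05 with a higher level was reached by 4 rows (13.0% of all rows), the called pair and both RPL3 rows. In none of the 63 did the Am580 and DMSO libraries fail to overlap (3.97% of all rows did so with Am580 higher). The standard error of a fold change had a median of 0.16 and was under 0.2 in 51 rows, so for a typical member the difference was about as large as its error.

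RPL3, a large-subunit protein that reaches toward the peptidyl transferase centre, came closest to a call among the rows not called. Its main row (MSTRG.434) was between 1700 and 2085 CPM in DMSO, with a median of 1819, and between 1964 and 2762 CPM in Am580, with a median of 2036. Only Am580 replicates 1 and 6 lay above every DMSO library. The log2 fold change was 0.22 (SE 0.10, edgeR adjusted p = 0.166). RPS6, the small-subunit protein phosphorylated by S6 kinase, had 999 to 1318 CPM in DMSO and 1120 to 1658 CPM in Am580 (log2 fold change 0.20, SE 0.11, adjusted p = 0.294).

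RPS2 ranged from 1852 to 2637 CPM in DMSO, median 2255, and from 2211 to 3427 CPM in Am580, median 2463. Its highest Am580 value was replicate 1 and its lowest DMSO value replicate 6, with the other 10 libraries overlapping between 2079 and 2637 CPM. The fold change was 0.21 (SE 0.12, edgeR adjusted p = 0.304). RPSA had the same extremes, at 1577 CPM in the lowest DMSO library and 2500 CPM in Am580 replicate 1, yet nearly equal medians of 1766 and 1756 CPM. RPL5 (MSTRG.16074) and RPL11, the MDM2-binding pair, had fold changes of 0.11 (SE 0.11) and 0.19 (SE 0.13), with adjusted p of 0.599 and 0.397.

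The extremes lay in the same libraries for nearly every ribosomal protein. DMSO replicate 6 was the lowest DMSO library in 52 of the 63 rows (it was so in 22.0% of all rows tested), and DMSO replicate 1 was the highest in 57 (21.9% of all rows). Am580 replicate 1 was the highest Am580 library in 56 rows (27.6% of all rows) and Am580 replicate 5 the lowest in 42 (17.3%). In 48 rows the lowest DMSO library was replicate 6 and the highest Am580 library was replicate 1. A single Am580 library lay above every DMSO library in 44 rows, none did so in 9, 2 in 6, and 3 or more in 4.

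As a median over the 63 rows of log2 CPM minus the row's mean over all libraries, DMSO replicate 1 stood at 0.278 and DMSO replicate 6 at -0.431, with the other 4 DMSO libraries between -0.213 and 0.0234. Am580 replicate 1 stood at 0.557 and the other 5 Am580 libraries between -0.156 and 0.0903. Large- and small-subunit rows moved alike in both outer libraries, at -0.418 and -0.449 in DMSO replicate 6 and at 0.515 and 0.591 in Am580 replicate 1. The same measure over all rows tested stayed between -0.00527 and 0.0216 in every library.

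**Figure D2:**
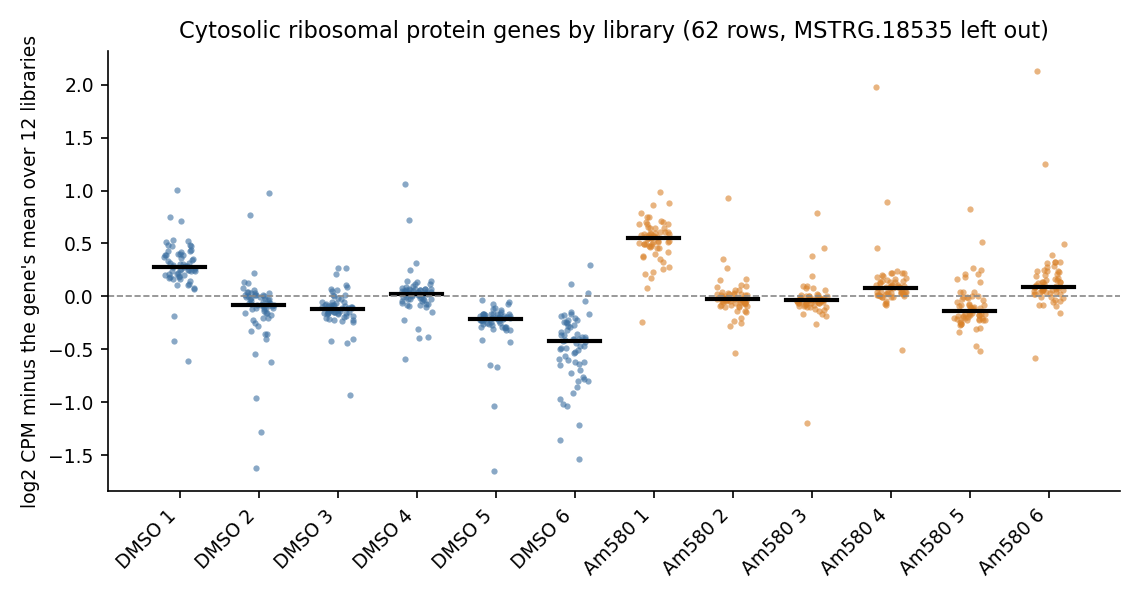
Log2 CPM minus the row's mean over 12 libraries (vertical axis) for 62 ribosomal protein rows in each library, 1 point per row, with a black bar at the median. MSTRG.18535 is left out because of its scale. The rows of a library move together: DMSO 6 has the lowest median and Am580 1 the highest, and the other 10 libraries overlap between treatments.

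By the median shift above, DMSO replicate 6 was the lowest DMSO library and Am580 replicate 1 the highest Am580 library. Leaving out either lowers the common shift by construction, so the drop in these fits is a description, not a test. The median log2 fold change of the 63 rows was 0.108 without DMSO replicate 6, 0.0915 without Am580 replicate 1 and 0.00649 without both, when 34 of the 63 rows were above 0. In that last fit, an alternative chosen after seeing the data, 53 of the 63 rows lay between -0.10 and 0.10. RPS21 was the only one of the 63 called there (1.15, edgeR adjusted p = 0.0414), beside 1721 of 25310 rows called higher in all. Without DMSO replicate 1, the highest DMSO library, the median rose to 0.267, a rise likewise built into that fit. There 3 of the 63 rows were called, beside 1867 of 25614 rows called higher in all. An unadjusted p under 0.05 was reached by 16 of the 63, and the share of all rows was not computed for that fit. The 18 muscle marker rows summed to 24831 CPM in DMSO replicate 1 and 22717 CPM in Am580 replicate 1, above the 6861 to 17696 CPM of the other libraries, and to 15127 CPM in DMSO replicate 6. By the median shift over those 18 rows DMSO replicate 1 was also highest (0.678). Am580 replicate 1 (0.274) was not, standing below DMSO replicate 2 (0.442) and Am580 replicate 2 (0.367). The 5 erythroid marker rows were lowest in DMSO replicate 6, at 14.9 CPM. Next lowest was Am580 replicate 1, at 22.9 CPM, against 27.2 to 138 CPM elsewhere. Both outer ribosomal libraries were thus low in these rows. The part of either marker list in the ribosomal values was not tested.

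**Figure D3:**
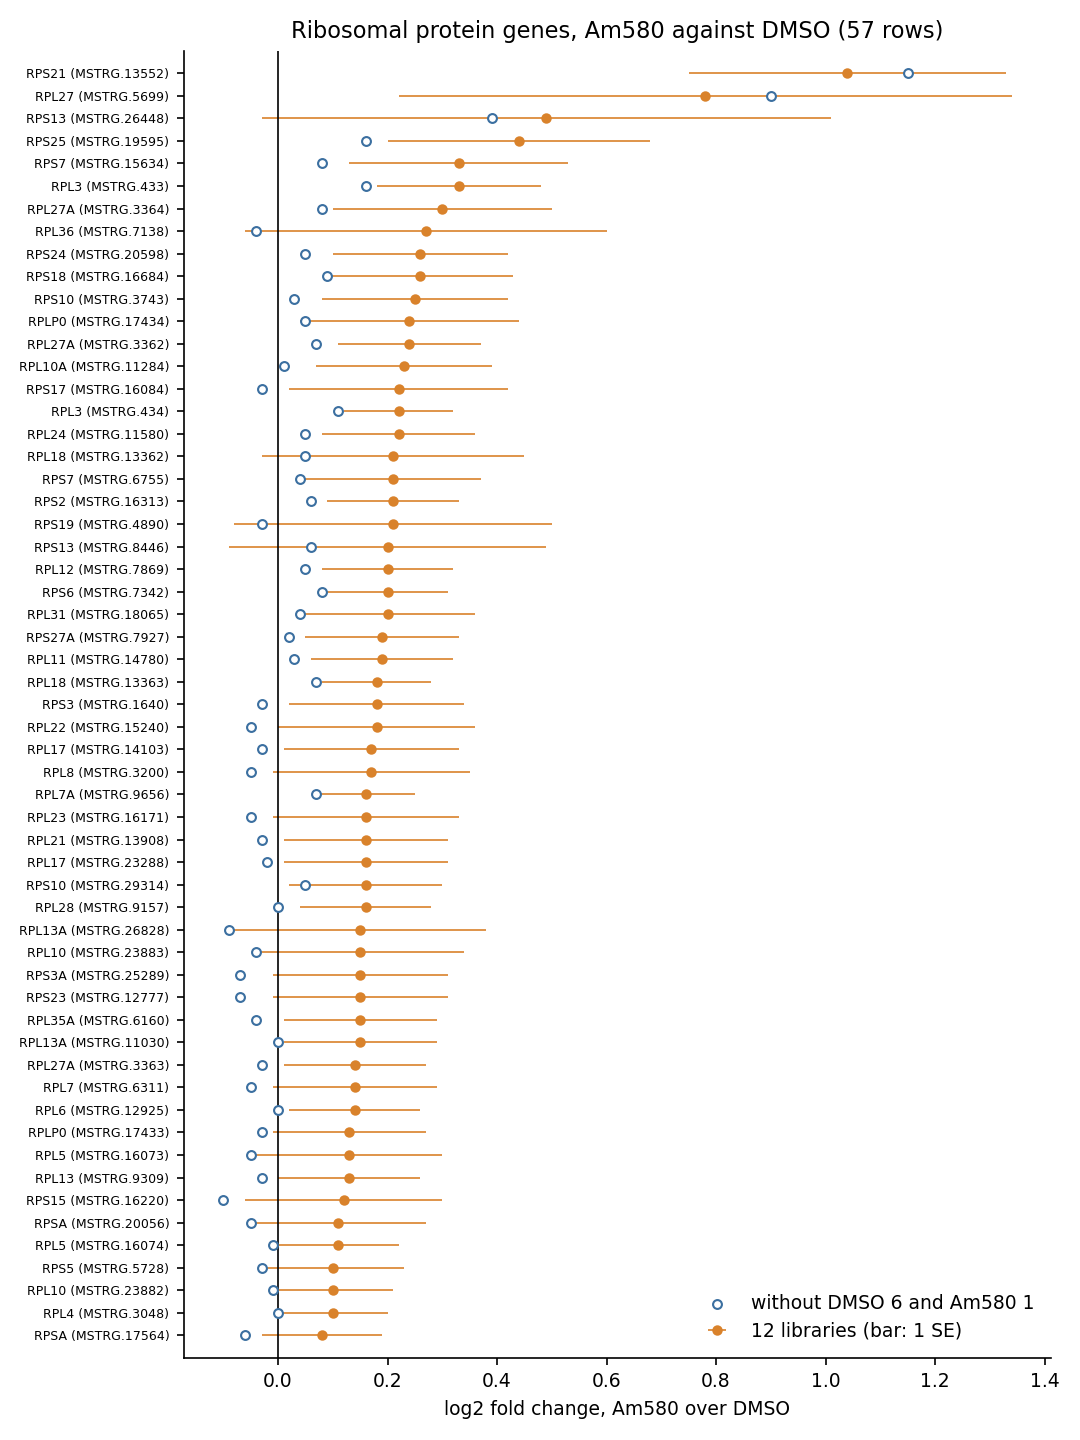
Log2 fold change of Am580 over DMSO (horizontal axis) for 57 ribosomal protein rows, MSTRG.18535 (6.96) left out. Filled points are the fit on 12 libraries with bars of 1 SE, and open points the fit without DMSO replicate 6 and Am580 replicate 1. All filled points are above 0 and most open points lie between -0.10 and 0.10, with RPS21 and RPL27 (adjusted p = 0.443) far to the right in both.

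Ribosomal protein rows took 3.24% to 4.49% of all counts in the DMSO libraries (mean 3.85% ± 0.420, SD, n = 6) and 4.01% to 5.43% in the Am580 libraries (mean 4.47% ± 0.509, SD, n = 6). The highest DMSO share, in replicate 1, was exceeded by Am580 replicate 1 (5.43%) and replicate 4 (4.58%) and by no other Am580 library. Large-subunit rows made up 2.28% of counts in DMSO and 2.64% in Am580, and small-subunit rows 1.56% and 1.83%. The coefficient of variation between libraries of a treatment had a median over the 63 rows of 19.4% in DMSO and 20.0% in Am580.

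RPS21, a small-subunit protein that binds the RPSA homologue in Drosophila, was called. Its row (MSTRG.13552) had 1.44, 2.95, 3.44, 3.82, 3.86 and 4.53 CPM in the DMSO libraries and 3.92, 5.07, 5.25, 7.85, 8.43 and 10.9 CPM in the Am580 libraries. In 5 of 6 Am580 libraries the level was above every DMSO library, and the outer libraries of the ribosomal set were not the outer ones here. The log2 fold change was 1.04 (SE 0.29, edgeR adjusted p = 0.0280), resting on 39 to 447 counts. When each library was dropped in turn, the call was lost 5 times (without DMSO replicate 1 or 4, or Am580 replicate 3, 4 or 6), and there the fold change was 0.87 to 1.05 and the adjusted p 0.0525 to 0.0629. The row spans 591967 bases with 22 exons on scaffold AMEXG_0030003570 (bases 17110 to 609076, minus strand), 1 of its transcripts coming from the reference, and it is the only RPS21 row, so whether its reads came from RPS21 exons was not tested.

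MSTRG.18535 behaved unlike any other ribosomal row. It had 8 to 25 counts in the 6 DMSO libraries and 14, 27, 30 and 43 counts in Am580 replicates 2, 4, 5 and 6, but 8318 counts (254 CPM) in Am580 replicate 1 and 5938 counts (150.4 CPM) in Am580 replicate 3. The medians were 0.557 CPM in DMSO and 0.876 CPM in Am580, so 4 of the 6 Am580 libraries lay near the DMSO range of 0.295 to 0.811 CPM. The fitted log2 fold change was 6.96 (SE 1.78, edgeR adjusted p = 0.0188). The call held with each library left out in turn (adjusted p 0.0129 to 0.0457), although the high level was that of 2 libraries. As the study chose this row for its change in the same libraries, these values are a description. Leaving out both high libraries gave 0.37 (adjusted p = 0.556), an alternative chosen after seeing the data, and limma-voom on all 12 libraries gave 2.98 (adjusted p = 0.504).

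MSTRG.18535 is a model of 2 exons with 286 bases on the plus strand of AMEXG_0030005841 (bases 1907222 to 1908022), with no reference transcript. The scaffold holds 1 other row, OSR1 (MSTRG.18534), a transcription factor of limb connective tissue that lies 240279 bases away on the opposite strand. OSR1 was between 0.339 and 1.81 CPM in DMSO and between 2.25 and 10.3 CPM in Am580, without overlap (log2 fold change 2.15, SE 0.44, edgeR adjusted p = 0.00454). Its highest values, 10.3 and 4.20 CPM, were in Am580 replicates 1 and 3. Over the 12 libraries, the 3 rows outside the set whose log2 CPM was most like that of MSTRG.18535 were the unnamed single-exon row MSTRG.7848 (Pearson r 0.909), PLEKHF1 (MSTRG.9493, 0.890) and LOC101937287 (MSTRG.19597, 0.889), all described by a likeness that the same 2 libraries set. PLEKHF1, for instance, had 39.2 and 39.3 CPM in Am580 replicates 1 and 3 and 25.7 to 31.4 CPM in the other 10.

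RPS25 lies on the head of the small subunit and is needed in mammalian cells for initiation at several viral internal ribosome entry sites. The annotated RPS25 row (MSTRG.19595) had only 24 to 79 counts in a library, 0.740 to 1.45 CPM in DMSO and 0.955 to 2.41 CPM in Am580 (log2 fold change 0.44, SE 0.24, adjusted p = 0.286). Neither row thus reached the level of most other small-subunit rows in 10 of the 12 libraries, although RPS21 (1.89 RPKM) and RPS19 (5.23 RPKM) were low as well. In the RefSeq annotation of the UKY_AmexF1_1 assembly, RPS25 has SLC37A4 and TRAPPC4 on one side and, beyond 1 uncharacterised locus, CENATAC, the newer name of CCDC84, on the other. The deposited assembly has an unnamed row between SLC37A4 (MSTRG.5258) and CCDC84 (MSTRG.5260), MSTRG.5259, which was looked up after the RPS25 values were seen. It lies on the plus strand of AMEXG_0030001070 (bases 589384 to 604950) with 5 exons and 621 bases, and had 18971 to 35961 counts in a library. In the RefSeq order TRAPPC4 and the uncharacterised locus also lie between SLC37A4 and CENATAC, so position alone does not name MSTRG.5259. No sequence was at hand to name it, and it is not counted among the 63 rows.

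The level of MSTRG.5259 followed that of the ribosomal proteins except in the same 2 libraries. As a percentage of the summed CPM of the 46 ribosomal rows above 100 CPM other than MSTRG.18535, it was 1.86% to 2.06% in the 6 DMSO libraries and in Am580 replicates 2, 4, 5 and 6, but 1.48% in Am580 replicate 1 and 1.44% in Am580 replicate 3. With MSTRG.18535 added, those 2 libraries came to 1.91% and 1.81%, beside 1.86% to 2.06% in the other 10. MSTRG.18535 held 22.3% and 20.6% of the counts of both rows there and at most 0.119% in any other library. The first exon of MSTRG.18535 has 99 bases and its intron 515, and the fourth exon of MSTRG.5259 in its first transcript also has 99 bases with an intron of 507 after it. The exons that follow differ, with 187 bases in MSTRG.18535 and 100 in MSTRG.5259. In the second transcript of MSTRG.5259 the fourth exon has 94 bases. MSTRG.5259 itself had a log2 fold change of 0.02 (SE 0.13, edgeR adjusted p = 0.937), and the sum of both rows was 782 CPM ± 138 in DMSO and 862 CPM ± 149.9 in Am580 (SD, n = 6). What links the rows in the 2 libraries was not tested.

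**Figure D4:**
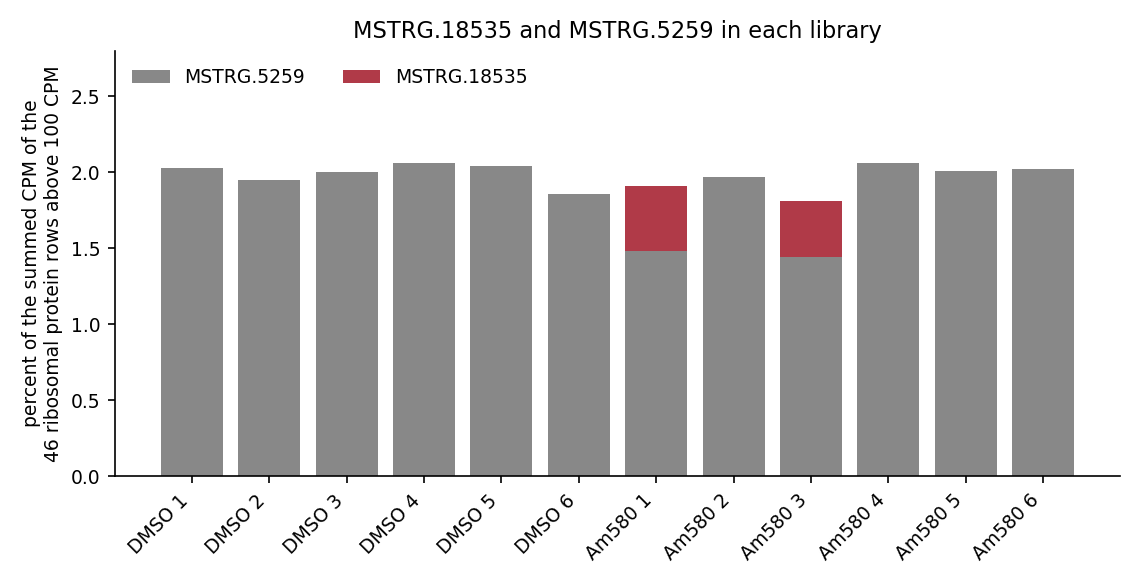
MSTRG.5259 (grey) and MSTRG.18535 (red) in each library, as a percentage of the summed CPM of the 46 ribosomal protein rows above 100 CPM. Grey bars reach 1.86% to 2.06% in 10 libraries and 1.48% and 1.44% in Am580 1 and Am580 3, where red adds up to 1.91% and 1.81%.

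Of the 47 symbols, 15 had more than 1 row, 31 rows in all, and the rows of a symbol shared the reads unequally. RPS10, a small-subunit protein ubiquitinated when ribosomes collide, was split almost evenly (50.4% on MSTRG.3743 and 49.6% on MSTRG.29314), as was RPL17 (51.7% on MSTRG.23288 and 48.3% on MSTRG.14103). RPS13, which contacts the large subunit, had 87.5% of its counts on MSTRG.26448, whose coefficient of variation was 64.0% in DMSO and 86.9% in Am580. The single-exon RPSA row (MSTRG.20056, 688 bases) held 1.02% of the RPSA counts. Reads that fit near-identical copies of a gene can be divided or dropped in counting, so these splits are uncertain.

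In RPL3, RPL5, RPL10, RPL18, RPL27A and RPLP0, a further row lay on the strand opposite the main row and shared exon bases with it. The libraries were stranded and counted by strand. In these 6 symbols the opposite row held 0.615% to 3.70% of the counts of its partner. For RPL3, the second row (MSTRG.433) had 29.5 to 60.2 CPM in DMSO and 46.7 to 68.5 CPM in Am580, which was 1.73% to 2.93% of the main row. Its fold change was 0.33 (SE 0.15, edgeR adjusted p = 0.179), and it was called without DMSO replicate 1 alone (0.44, adjusted p = 0.0427). In each of those 6 symbols the lowest percentage was that of DMSO replicate 6, whose main rows were also low. Whether the counts of these rows came from transcripts of the opposite strand was not tested.

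Lists of other genes of the translation machinery had medians on both sides of 0, and whether they differ from the ribosomal proteins was not tested. Of 51 tested rows for mitochondrial ribosomal proteins, which build the separate ribosome of that organelle, 45 had a log2 fold change below 0, with a median of -0.189, and 5 were called lower (7.21% of all rows) and 0 higher (6.93% of all rows). The largest of these were MRPL38 (12.3 CPM ± 1.04 in DMSO and 7.96 CPM ± 0.419 in Am580, SD, n = 6; -0.63, adjusted p = 0.000108) and MRPL12 (-0.61, adjusted p = 0.000118). Without DMSO replicate 6 and Am580 replicate 1 the median was -0.300 and 22 of the 51 were called lower (7.87% of all rows in that fit). The cytosolic median fell in that fit too, to 0.00649. For the mitochondrial rows as well, these were the lowest DMSO library (median shift -0.0943) and the highest Am580 library (0.253). A fall was therefore built into that fit. With only Am580 replicate 1 left out 15 were called lower (7.63% of all rows in that fit), and with only DMSO replicate 6 left out 9 (6.62%).

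Among 93 ribosome biogenesis rows (median -0.0773), 6 were called lower, or 6.45% against 7.21% of all rows, and 0 higher. POLR1A, the largest subunit of RNA polymerase I, had -0.34 (adjusted p = 0.00244). TCOF1, which aids rRNA transcription, had 2 rows of similar level, MSTRG.20682 (56.6 CPM in DMSO), called at -0.41 (adjusted p = 0.0363), and MSTRG.11216 (48.9 CPM in DMSO), at -0.13 (adjusted p = 0.594). Of 22 regulators of ribosomal protein mRNAs, 4 were called lower (18.2%, against 7.21% of all rows) and 0 higher (median -0.107). They were MYCN (12.2 CPM ± 1.09 in DMSO, 6.75 CPM ± 1.74 in Am580, n = 6; -0.85, adjusted p = 0.00215), MYCL (-0.42, adjusted p = 0.0278), RPTOR, the scaffold of mTOR complex 1 (-0.52, adjusted p = 0.00207), and LARP4 (-0.48, adjusted p = 0.00259). LARP1 had -0.20 (adjusted p = 0.228). Without DMSO replicate 6, 3 regulators were called lower (6.62% of all rows in that fit), and without Am580 replicate 1, 5 were (7.63%). MYC, MAX, MTOR and EIF4EBP1, also on the list, had no row under those names. The list was not split into activators and inhibitors, so its median gives no direction for the pathway.

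In the next lists the calls were few, beside 6.93% of all rows called higher and 7.21% lower. Translation initiation factors (37 rows, median 0.0266) had 1 row called higher, EIF4A2 (0.33, adjusted p = 0.0268), and 2 lower, EIF5 (-0.28, adjusted p = 0.0189) and EIF2B5 (-0.25, adjusted p = 0.0260). Without DMSO replicate 6, 0 initiation factors were called higher, so the EIF4A2 call was lost there. Of 14 elongation and release factor rows (median 0.0665), EEF1B2, the exchange factor of EEF1A, was called higher (605 CPM ± 144 in DMSO, 909.9 CPM ± 203 in Am580, n = 6; 0.59, adjusted p = 0.0415). That call was lost without DMSO replicate 6 and without Am580 replicate 1. EEF1A1 and EEF2, the main elongation factors, had 0.24 and 0.20 (both adjusted p = 0.248). Of 14 other rows for mRNAs with an oligopyrimidine tract (median 0.114), 2 were called higher and 1 lower. Those called higher were low, a minor NAP1L1 row (MSTRG.17316, 5.85 CPM in DMSO; 0.80, adjusted p = 7.57e-05) and IPO5 (1.88 CPM in DMSO; 0.55, adjusted p = 0.0402). Only 1 row of this list was called higher without DMSO replicate 1, without DMSO replicate 6 or without Am580 replicate 1. The main NAP1L1 row (MSTRG.7234, 667 CPM in DMSO) had 0.07 (adjusted p = 0.703). VIM was called lower (-0.48, adjusted p = 0.00305). RACK1, a small-subunit protein outside the name pattern, had 1030 CPM ± 96.7 in DMSO and 1088 CPM ± 148 in Am580 (SD, n = 6; 0.08, adjusted p = 0.687).

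Among 13 p53 target rows, 1 was called higher (6.93% of all rows) and 2 lower (7.21%). GADD45A was higher (0.97, adjusted p = 0.00115) and GADD45B lower (-0.82, adjusted p = 0.00548). The smaller MDM2 row (MSTRG.17526, 39.1 CPM in DMSO) was called lower (-0.32, adjusted p = 0.0141), while the larger (MSTRG.17525, 93.1 CPM in DMSO) had -0.23 (adjusted p = 0.328). None of 5 rows listed as ribosomal protein paralogs outside the name pattern was called (median 0.102). The list includes RPS19BP1, by its name a binding protein of RPS19 and not a paralog. It was the only row of the list below 0 (-0.34, edgeR adjusted p = 0.172). RPL26L1 had 0.20 (adjusted p = 0.573) and RPL7L1 0.10 (adjusted p = 0.590).

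**Figure D5:**
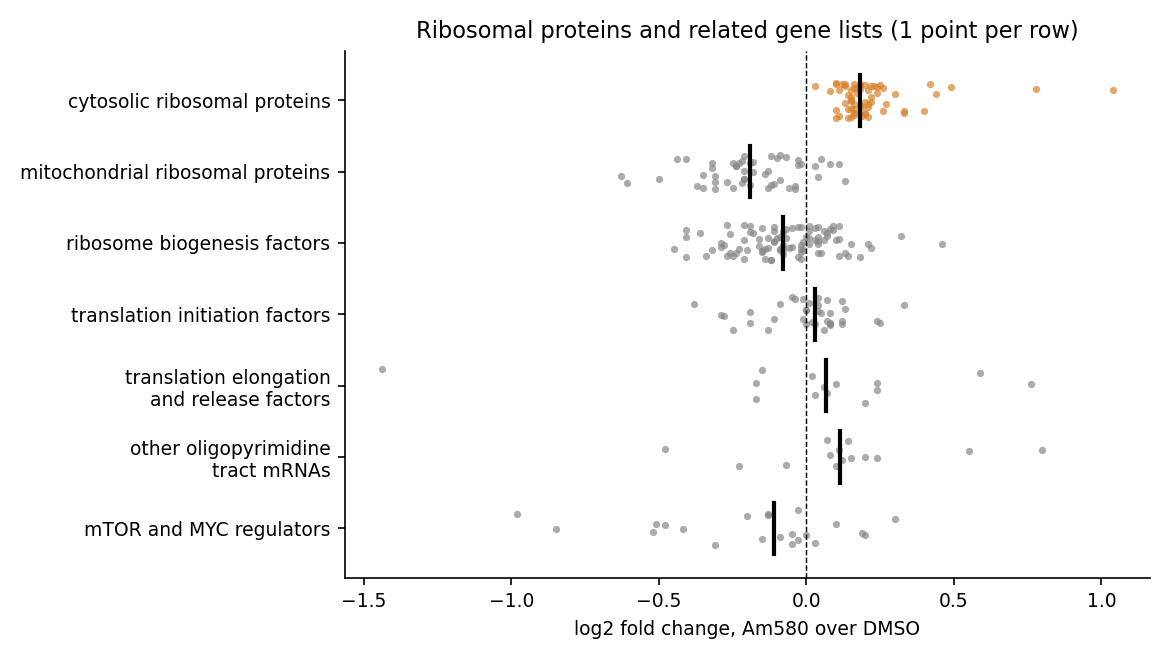
Log2 fold change of Am580 over DMSO (horizontal axis) for 62 cytosolic ribosomal protein rows (MSTRG.18535 left out) and for the tested rows of 6 related lists, 1 point per row, with a black bar at the median. The cytosolic ribosomal rows all lie above 0 around 0.183, while 45 of 51 mitochondrial ribosomal rows lie below 0 around -0.189.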

How the data were processed

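Paired reads of stranded poly-A libraries were trimmed with Trimmomatic 0.36, aligned to AmexG_v3.0.0 with HISAT2 2.1.0 and assembled and merged with StringTie 1.3.4d, and reads on exons of each merged gene were counted by strand with featureCounts of Subread 1.6.2, per the submitters' processing notes and the study's methods. The deposited counts are whole numbers per gene, made with the paired-end option of featureCounts. They were not normalized by the authors and were tested as deposited. The deposited normalized table (a signal scaled per library by the authors, equal to TMM-scaled CPM of 25685 genes) was not used. Positions and exon lengths came from the deposited merged annotation. CPM, RPKM over merged exon length and tests were computed with edgeR 4.0.16 in R 4.3.3 (TMM, at least 10 counts in at least 6 libraries, legacy quasi-likelihood F-test, prior count 2 for log2 CPM). DESeq2 1.42.0 and limma 3.58.1 served as alternatives, with other scalings and filters, a replicate block and each library left out. The fit was tested on simulated data. No 2 libraries held identical values, and each was made from a separate animal.

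The members and lists were chosen with earlier results of these data known. Named rows were MSTRG.18535, all called rows and every row of their symbols, the 5 highest and 5 lowest by RPKM, rows whose call changed in a fit leaving out 1 library, and the 3 rows most like MSTRG.18535. Other ribosomal rows named here, and the list rows that were not called, were chosen after their values were seen. RefSeq's UKY_AmexF1_1 annotation gave only names and the order of neighbours, as its build differs. Some members are counted in the totals but not reported here by name, and were left out of plots that label rows. No genome sequence of the build was used here, so no sequence is printed. Depth, 27226012 to 43793138 counts, puts the level that 3 counts allow at 0.0637 to 0.111 CPM (counting error only).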

Additional observations from a re-analysis of the deposited data

Results flagged for a closer look

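In 4 of 28 groups of 6 libraries tested for a library that stands apart from its group (Dixon's test, which by chance marks about 1 in 20), the library was Am580 replicate 1, and each time it was high. It held 3427 CPM of RPS2 (MSTRG.16313), 1445 CPM of RPS23 (MSTRG.12777) and 2500 CPM of RPSA (MSTRG.17564), and its median shift over the 63 ribosomal protein rows was 0.557 on the log2 scale. Over all 63 rows, 26 of 126 pairs of row and treatment had such a library. These rows share their libraries and are not independent.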

How the results depend on the processing

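All 63 rows stayed above 0 with every other scaling, filter and tool (62 of 62 with 10 counts asked in every library), and none was called lower in any fit. The count of rows called higher, 2, was 4 by library size alone (RPL3 MSTRG.434 and RPL7A in addition), 1 with 10 counts in every library (which leaves out MSTRG.18535), 1 with limma-voom, 1 with a replicate block and 1 to 3 with 1 library left out. Without Am580 replicates 1 and 3 it was 0 and without DMSO replicate 6 and Am580 replicate 1 it was 1 (both chosen after seeing the data). Over all rows, 1429 of 25150 were called higher in the first of those fits and 1721 of 25310 in the second. Of all 25879 rows tested, 1793 were called higher in the main fit and 2145 by library size alone. Limma-voom called 1785 higher and the replicate block 1635, and 1592 of 21357 were called higher with 10 counts in every library. With 1 library left out, 1457 to 1890 of all rows were called higher. MSTRG.18535 had 2.98 with limma-voom, 5.82 to 7.23 with 1 library left out, 0.37 without Am580 replicates 1 and 3 and 5.84 (adjusted p = 0.0661) without DMSO replicate 6 and Am580 replicate 1. With the replicate block it had 3.76 (adjusted p = 0.209). In that fit 16 ribosomal rows had an unadjusted p under 0.05, and the share of all rows was not computed for it. Correlations of same-numbered libraries ran from -0.172 to 0.235. Libraries with different numbers were not compared in that way, so whether the numbers pair the samples was left undecided. Rows above 0 numbered 62 of 63 without DMSO replicate 1 or Am580 replicate 2, 4 or 5, 59 without Am580 replicate 1, 58 without Am580 replicates 1 and 3 and 34 without DMSO replicate 6 and Am580 replicate 1. The rows followed here are those named by the rules given above, not every row in the text. Among them, fold changes turned below 0 without Am580 replicate 1 for RPSA MSTRG.17564 and RPL13A MSTRG.26828 (-0.01 and -0.05), as they did without Am580 replicates 1 and 3 (-0.02 and -0.11). Without DMSO replicate 6 and Am580 replicate 1, 29 of the 63 rows were below 0. Of the rows followed here, these were RPSA (-0.06), RPL13A (-0.09), RPS23 (-0.07), RPS15 (-0.10) and RPS19 (-0.03). With 1 library left out, the highest values were 0.12 for RPSA, 0.29 for RPL13A, 0.23 for RPS23, 0.25 for RPS15 and 0.42 for RPS19. The cause was not tested. The median over the rows was 0.0915 to 0.267 with 1 library left out. The lowest count of a ribosomal row in a library was 8, in MSTRG.18535.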
